A study of Homo sapiens with 4 samples.

Results

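The 10 genes described here belong to the Hippo pathway and its transcriptional output: the co-activator genes YAP1 and WWTR1, the DNA-binding partner genes TEAD1, TEAD2, TEAD3 and TEAD4, the kinase genes LATS1 and LATS2, and the target genes CCN1 and CCN2. They were chosen by name from the 17687 genes that the array's annotation names, and each is read by 1 probe set. Expression was measured on Affymetrix whole-transcript arrays in SK-N-AS, an established human neuroblastoma cell line. Treated cells were exposed to BG-P400-TAT at 30 µM for 48 h, and untreated cells to phosphate-buffered saline at pH 7.4 for the same time. Each group has 2 arrays. By its title the study aims the compound at the norepinephrine transporter and at integrin αvβ3, and both groups are the same line in the same serum-containing medium. The results therefore concern 1 line, 1 dose and 1 time.

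In the Hippo pathway a kinase cascade ends in LATS1 and LATS2, which phosphorylate the co-activators YAP, from YAP1, and TAZ, from WWTR1, and so keep them out of the nucleus. YAP and TAZ that reach the nucleus bind TEAD proteins and raise the transcription of genes such as CCN1 and CCN2, which encode secreted matrix proteins. YAP activity is controlled largely at the protein level, which an RNA array does not measure, and it is associated with the mesenchymal state of neuroblastoma cells.

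A gene was read as above background where its log2 expression exceeded the 95th percentile of the 612 negative-control probe sets. That limit was 7.19 and 7.25 on treated replicates 1 and 2, and 7.31 and 7.64 on untreated replicates 1 and 2. Above it lay 9657 and 9533 probe sets on the treated arrays, and 9413 and 8808 on the untreated arrays, of 21448 tested. Untreated replicate 2 stood apart: its median absolute log2 difference to any other array was 0.237 to 0.244, against 0.193 to 0.208 among the other 3 arrays. Of the neuroblastoma markers, 6 of 7 mesenchymal genes and 4 of 6 measured adrenergic genes averaged above the limit, while the catecholamine enzyme genes DBH and TH did not on any array. Of 7 markers of other cell types, 6 were below the limit on every array. The exception was the leukocyte gene PTPRC, at 12.71 and 12.57 in treated cells and 12.75 and 12.80 in untreated cells, and its part in the results was not tested.

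YAP1, TEAD1, TEAD2 and LATS1 were above the limit on all 4 arrays, whereas WWTR1, TEAD4, LATS2, CCN1 and CCN2 were below it on all 4. TEAD3 sat at the limit and exceeded it on 1 array. By the untreated mean alone, with its own limit of 7.22, 4 of the 10 genes were above background, beside 44.5% of all tested probe sets. The array thus read 1 of the 2 co-activator genes, 1 of the 2 LATS genes and neither CCN target above its negative controls.

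**Figure D1:**
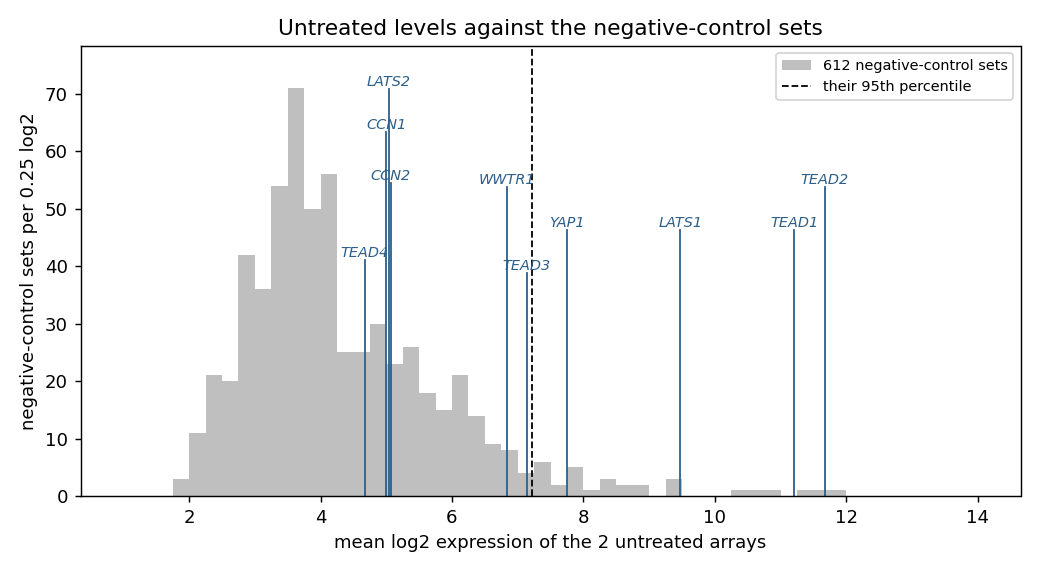
Histogram of the 612 negative-control probe sets by their mean log2 expression over the 2 untreated arrays (x axis), with the number of sets per bin on the y axis, their 95th percentile as a dashed line and the untreated mean of each gene as a blue line whose height has no meaning. CCN1, CCN2, LATS2 and TEAD4 lie within the body of the negative controls, WWTR1 and TEAD3 just under the limit, and YAP1, LATS1, TEAD1 and TEAD2 above it.

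None of the 10 genes passed the test of treatment, set at an adjusted p under 0.05. By limma 0 of the 10 genes passed, beside 0% of all 21448 probe sets, and 0 of the 10 had an unadjusted p under 0.05, beside 5.08% of all. The differences, treated minus untreated on the log2 scale, were positive for 5 genes and negative for 5, beside 49.1% positive over all probe sets. Their median was 0.047 over the 10 genes and -0.0046 over all probe sets. Treated values did not overlap untreated values in 3 genes, YAP1, WWTR1 and CCN2, each time with treated cells higher. The background share was 16.4% for that direction and 16.8% for treated cells lower, which no gene of the set showed. WWTR1 and CCN2 were below the limit on every array, and the CCN2 groups were only 0.0034 apart. Of the 5 genes averaging above the negative controls only YAP1 was higher without overlap, beside 20.9% of all such probe sets. The values come from whole cultures, so fewer cells of a type and less RNA per cell cannot be told apart. With 2 arrays per group an exact two-sided permutation test of a single gene cannot give a p under 0.333.

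**Figure D2:**
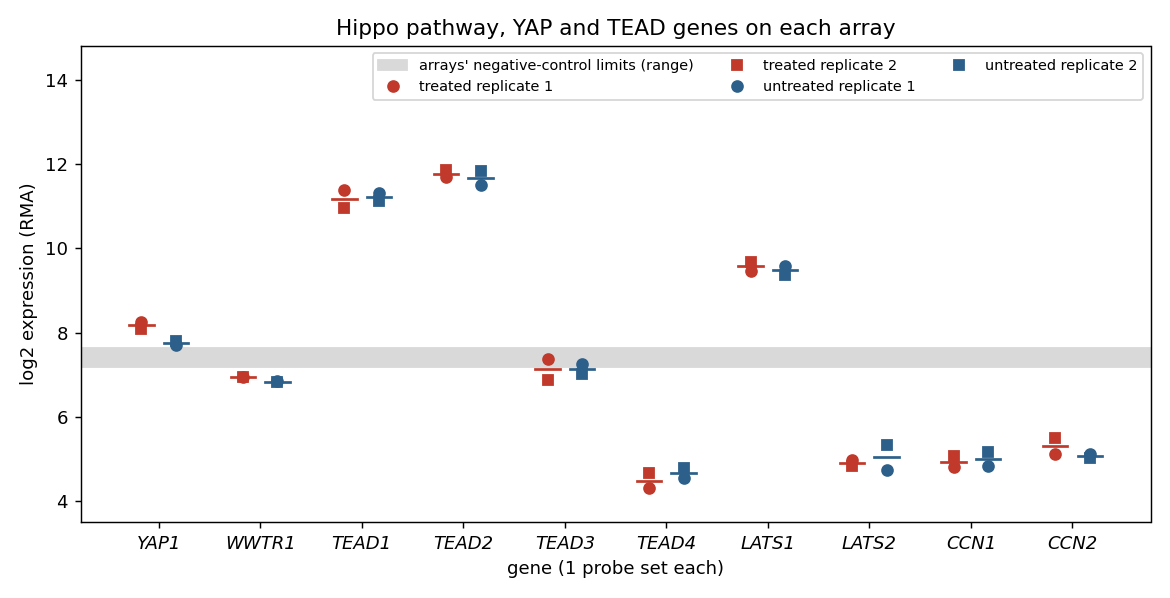
Log2 expression (y axis) of each gene (x axis) on the 2 treated arrays (red, left) and the 2 untreated arrays (blue, right), with group means as bars and the range of the 4 arrays' negative-control limits in grey. Only YAP1, TEAD1, TEAD2 and LATS1 have all 4 points above the grey band, and YAP1 is the only one of these 4 whose treated points are both above its untreated points.

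Of the co-activators, YAP1 had the largest difference of the 10 genes. Its log2 expression was 8.26 and 8.09 on the treated arrays, against 7.71 and 7.80 on the untreated arrays. The groups did not overlap, and the gap of 0.29 between the lower treated and the higher untreated array exceeded the differences within either pair, 0.16 for treated and 0.097 for untreated arrays. The mean was 8.18 ± 0.11 in treated and 7.75 ± 0.069 in untreated cells (SD, n = 2 each), a log2 difference of 0.42 ± 0.19 (SE) with a 95% confidence interval from -0.021 to 0.863. On a linear scale this is 1.34-fold, with an interval from 0.985- to 1.82-fold. The limma p was 0.059 before and 0.948 after adjustment, so YAP1 did not pass. A difference at least as large was found in 3.92% of the 9960 probe sets whose mean over the 4 arrays was above the negative controls, and 20.9% of those had treated arrays above untreated ones without overlap. The level itself was modest in relation to background: YAP1 exceeded 96.9% and 97.1% of the negative-control sets on the treated arrays, and 95.9% of them on each untreated array.

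WWTR1, which encodes TAZ, was at 6.96 and 6.95 in treated cells, against 6.85 and 6.82 in untreated cells. The groups did not overlap, but all 4 values were under the array limits, between 91.5% and 94.3% of the negative-control sets. The difference of these values was 0.12 (interval -0.31 to 0.55) and is not read as a change, since neither group was above background.

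The TEAD genes encode the transcription factors that carry YAP and TAZ to DNA. TEAD1 was at 11.39 and 10.95 on the treated arrays, against 11.32 and 11.11 on the untreated arrays. Treated replicate 1 was the highest and treated replicate 2 the lowest of the 4, so the untreated values lay between the treated ones. The log2 difference of TEAD1 was -0.049, with an interval from -0.575 to 0.477, and its sign turned without treated replicate 2 (0.17) or without untreated replicate 1 (0.054).

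TEAD2 was at 11.70 and 11.85 in treated cells, against 11.50 and 11.84 in untreated cells. Its groups overlapped, and untreated replicate 1 was the low value. The difference was 0.10, with an interval from -0.386 to 0.593, and became -0.070 without untreated replicate 1. For both TEAD1 and TEAD2 the interval covers no difference as well as moderate differences in either direction, so the arrays do not show that their expression was the same.

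TEAD3 was at 7.38 and 6.88 in treated cells, against 7.26 and 7.01 in untreated cells. The treated values again enclosed the untreated ones, and only treated replicate 1 exceeded its array's limit. TEAD4 was at 4.30 and 4.67 in treated cells, against 4.55 and 4.79 in untreated cells, which exceeded 57.2% to 67.5% of the negative-control sets. Its groups overlapped, and no fold is given for it.

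LATS1, the kinase gene of the pair that was above background, was at 9.47 and 9.68 in treated cells, against 9.58 and 9.37 in untreated cells. The groups overlapped, with the highest value in treated replicate 2 and the lowest in untreated replicate 2. The log2 difference of LATS1 was 0.098, with an interval from -0.369 to 0.565, and it was close to 0 without treated replicate 2 (-0.0069) or untreated replicate 2 (-0.010). LATS2, which is itself a YAP and TEAD target as well as a kinase gene, was at 4.97 and 4.83 in treated cells, against 4.75 and 5.33 in untreated cells. Those values were above 70.4% to 75.8% of the negative-control sets, the groups overlapped, and no direction is given.

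**Figure D3:**
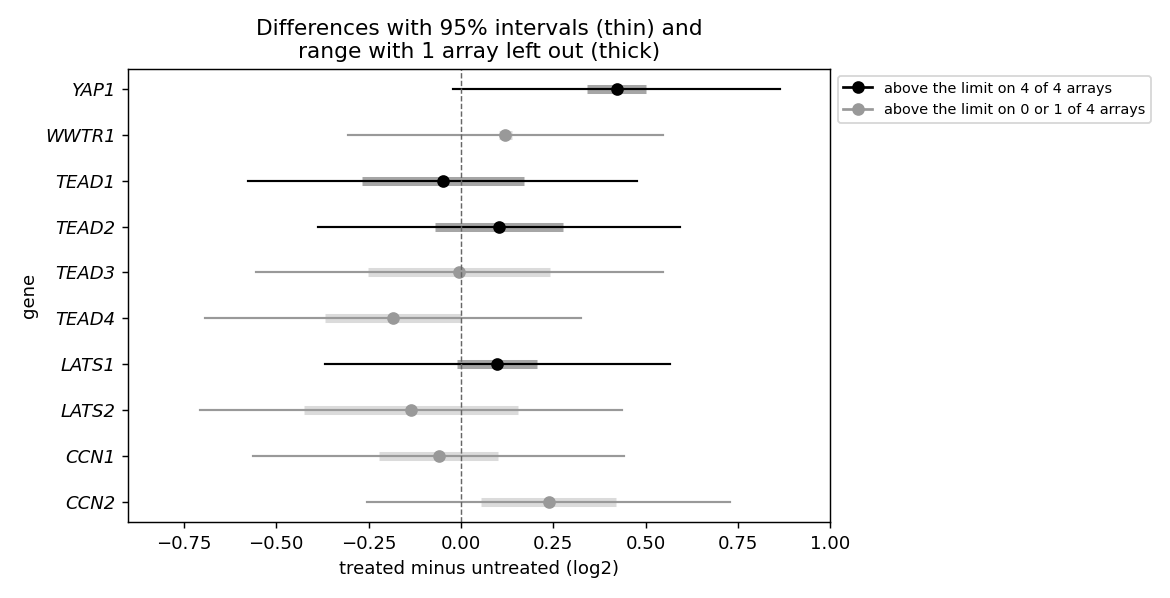
Treated minus untreated log2 difference (x axis) of each gene (y axis), as a point with its 95% confidence interval from limma (thin line) and the range over fits without 1 of the 4 arrays (thick line). Genes above the limit on 4 of 4 arrays are black and the others grey. All 10 intervals include 0. The range of YAP1 (0.34 to 0.50) stays above 0, which follows from groups that do not overlap.

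CCN1 and CCN2, formerly CYR61 and CTGF, are the targets most often used to read YAP activity. CCN1 was at 4.81 and 5.07 in treated cells, against 4.84 and 5.16 in untreated cells, above 69.9% to 74.0% of the negative-control sets. The groups overlapped and the values are those of a gene not detected above background. CCN2 was at 5.13 and 5.49 in treated cells, against 5.12 and 5.02 in untreated cells, above 69.4% to 81.0% of the negative-control sets. Treated replicate 1 lay 0.0034 above the higher untreated array, and treated replicate 2 was the high value. The difference of the CCN2 means was 0.24, and 0.054 without treated replicate 2, and is not read as a change. The other CCN family genes, CCN3, CCN4, CCN5 and CCN6, were also below the limit on all 4 arrays.

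The letters that TEAD proteins recognise, GGAATG or on the other strand CATTCC, were searched in the 250 bases before each annotated transcript start in RefSeq promoter sequences of GRCh38.p14, and do not overlap each other in any window printed here. Of the 10 genes, 7 had such sequences, in 10 windows counting alternative starts, and 2 genes held a match: CCN2 and YAP1. CCN1, TEAD1 and TEAD4 had none, so their promoters were not searched. At least 1 match was in 11.9% of all 35116 windows, and 3 or more in 0.0826%. CCN2 held 3, beginning 169, 104 and 95 bases before its transcript start, within the stretch chr6:131951440-131951563 (minus strand). YAP1 held 1, beginning 162 bases before its transcript start, within the stretch chr11:102110263-102110312 (plus strand). These stretches, which end before the start, are shown with those of ANKRD1 (chr10:90921188-90921329, minus strand) and AXL (chr19:41226521-41226570, plus strand), targets of which the first was below background as CCN2 was. Each is written on the gene's own strand with the matching letters in capitals.
CCN2: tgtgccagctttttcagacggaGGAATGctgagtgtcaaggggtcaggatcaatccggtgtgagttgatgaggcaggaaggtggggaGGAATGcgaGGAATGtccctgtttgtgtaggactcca
YAP1: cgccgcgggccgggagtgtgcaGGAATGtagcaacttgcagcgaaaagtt
ANKRD1: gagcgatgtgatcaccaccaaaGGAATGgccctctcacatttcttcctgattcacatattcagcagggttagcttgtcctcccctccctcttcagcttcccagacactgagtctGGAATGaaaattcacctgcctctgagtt
AXL: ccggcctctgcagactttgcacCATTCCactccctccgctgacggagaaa

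Among the 19 YAP and TEAD targets outside the set, 14 genes had a window and 7 of these held a match. Counted by window this was 7 of 16 (43.8%), beside 11.9% of all 35116 windows. The match describes the sequence and is not evidence that a TEAD protein was bound.

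**Figure D4:**
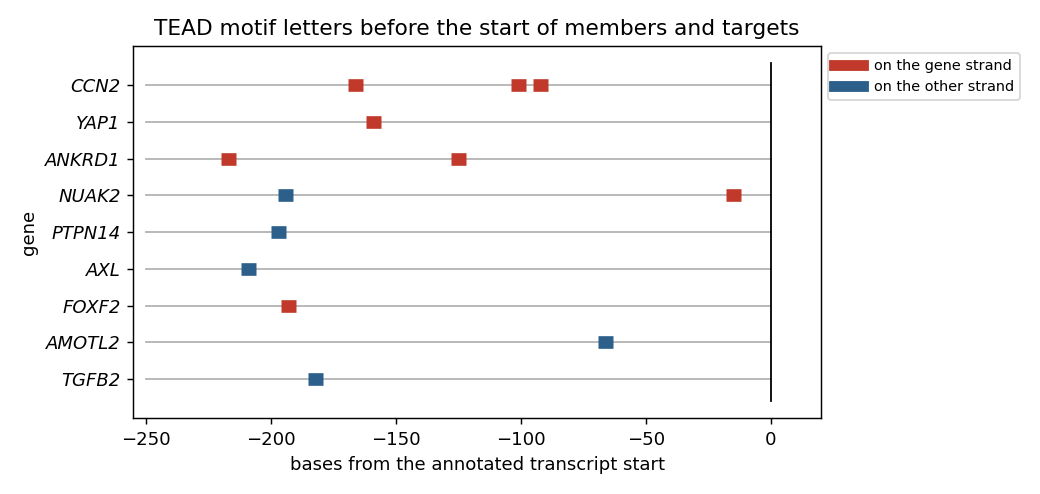
Position of the TEAD motif letters (blocks) in the 250 bases before the annotated transcript start (x axis, in bases from the start at 0) of the 2 genes of the set and 7 other targets that hold them (y axis). Red blocks lie on the gene's strand and blue blocks on the other; CCN2 has 3 matches, 2 of them close together.

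The other genes of the pathway were read from lists of kinases and upstream regulators, binding partners, targets, and SRF with actin cytoskeleton genes. None of these genes passed at an adjusted p under 0.05 by limma, and the smallest adjusted p in each list was 0.948 or higher. All 16 measured kinases, adaptors and upstream regulators averaged above the negative controls, and 13 of them were above the limit on every array. Of these 16 differences 5 were positive and 11 negative, beside 58.6% positive among all probe sets above the negative controls. Treated arrays lay above untreated ones without overlap in 1 of the 16 and below in 1, beside 16.4% and 16.8% of all probe sets. Of the 9960 probe sets above the negative controls, as all 16 genes were, 2078 (20.9%) were higher without overlap and 1143 lower. The median difference of -0.021 became 0.072 with 10 positive without treated replicate 2, and 0.00081 with 8 positive without untreated replicate 2. The largest of these differences was that of NF2, which encodes the membrane-associated pathway activator merlin. It was at 8.60 and 8.33 in treated cells, against 7.95 and 8.14 in untreated cells. The NF2 groups did not overlap, and its log2 difference of 0.42 (interval -0.056 to 0.895, adjusted p 0.948 by limma) was 0.28 to 0.56 with an array left out.

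The core kinase genes upstream of LATS1 had smaller differences. STK3 and STK4, which encode the MST kinases, had log2 differences of 0.070 (interval -0.40 to 0.54) and -0.13 (interval -0.58 to 0.32). SAV1, their scaffold, had -0.17 (interval -0.67 to 0.32). MOB1B, a LATS co-activator, was at 8.76 and 8.63 in treated cells, against 8.94 and 8.81 in untreated cells, a difference of -0.18 (interval -0.62 to 0.26) between groups that did not overlap. The sign of STK3 turned without untreated replicate 2 or treated replicate 2 and that of SAV1 without untreated replicate 1, within ranges of -0.065 to 0.21 and -0.36 to 0.013.

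Among 12 measured binding partners and regulators of YAP and TAZ, 6 averaged above the negative controls. The differences were positive in 6 and negative in 6, beside 49.1% positive over all probe sets. BTRC, a ubiquitin ligase subunit that targets phosphorylated YAP for degradation, was at 10.13 and 9.76 in treated cells, against 10.13 and 10.14 in untreated cells. The difference of -0.19 (interval -0.68 to 0.30) rested on treated replicate 2 and was -0.0075 without it. CSNK1D, a casein kinase gene, had a log2 difference of 0.17 (interval -0.27 to 0.62). VGLL4, which competes with YAP for TEAD, had 0.12 (interval -0.43 to 0.66) and -0.14 without treated replicate 1. VGLL1, VGLL2 and VGLL3 were below the limit on all arrays.

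Of 16 measured YAP and TEAD targets outside the set, 11 averaged above the negative controls. Of the 16 differences 9 were positive and 7 negative, beside 49.1% positive over all probe sets. Treated arrays lay above untreated ones without overlap in 4 of the 16 and below in 1, beside 16.4% and 16.8% of all probe sets. The median difference was 0.014. It was negative with quantile-normalized (-0.026) or loess-normalized values (-0.031), and ran from -0.044 without treated replicate 1 to 0.16 without untreated replicate 2. IGFBP3, which encodes an insulin-like growth factor binding protein, was at 9.69 and 9.69 in treated cells, against 9.20 and 9.29 in untreated cells. The groups did not overlap, and the log2 difference was 0.44 (interval 0.014 to 0.872) with a limma p of 0.0448 before and 0.948 after adjustment. MYOF, a membrane repair gene, had 0.22 (interval -0.22 to 0.67) and groups that did not overlap. AXL, a receptor tyrosine kinase gene above the limit on 2 of 4 arrays, had 0.22 (interval -0.35 to 0.80), which was -0.071 without untreated replicate 1. The well-known targets ANKRD1 and F3 were below the limit on all 4 arrays, at 4.34 and 4.13 in treated cells against 3.75 and 3.84 in untreated cells for ANKRD1. F3, tissue factor, was at 5.24 and 5.47 in treated cells, against 5.01 and 4.43 in untreated cells. Higher treated values of these dim genes are not read as changes.

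**Figure D5:**
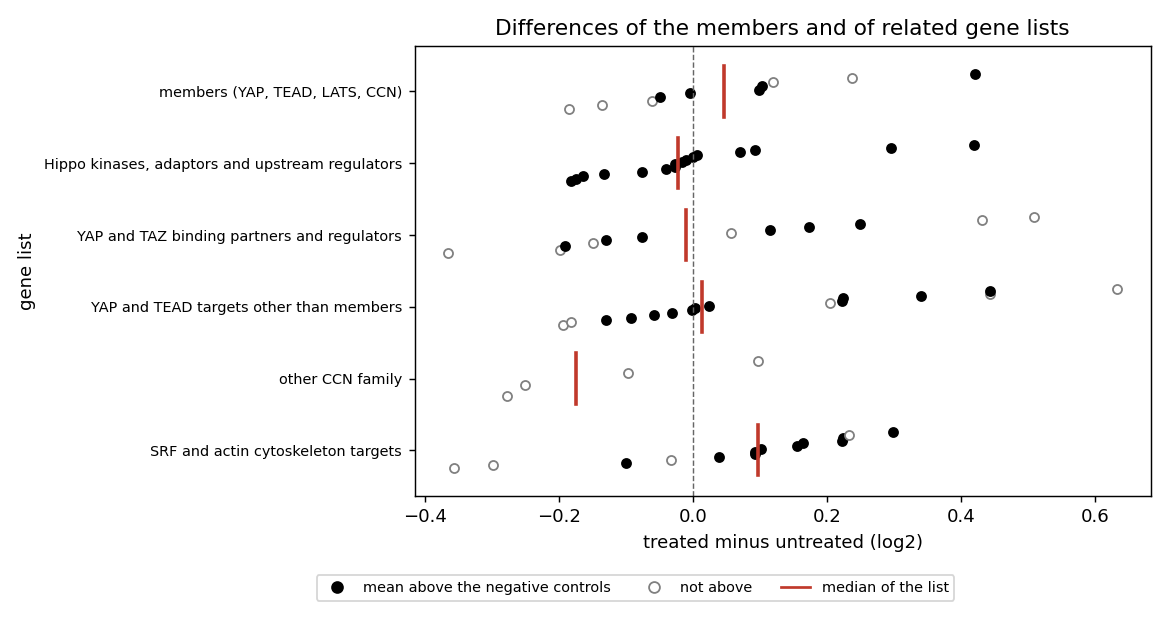
Treated minus untreated log2 difference (x axis) of every measured gene in each list (y axis), filled where the gene's mean over the 4 arrays was above the negative controls and open where it was not, with the list median as a red bar. YAP1 and NF2 lie at 0.42 in their lists; no gene shown passed the test.

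SRF, a transcription factor of actin cytoskeleton genes, its co-activator genes MRTFA and MRTFB and genes of its programme made up a list with 14 measured genes, of which 10 averaged above the negative controls. Of the 14 differences 10 were positive and 4 negative, with a median of 0.097. Treated arrays lay above untreated ones without overlap in 6 of the 14, among them the dim gene CNN2, beside 16.4% of all probe sets. They lay below in 1 of the 14, the dim gene CNN1, beside 16.8% of all probe sets. Among all probe sets above the negative controls, which CNN1 and CNN2 were not, 20.9% had treated arrays higher without overlap. Among the 10 above the negative controls 9 were positive, where 58.6% of all such probe sets were. TPM1, a tropomyosin gene, was at 11.78 and 11.56 in treated cells, against 11.40 and 11.34 in untreated cells, a log2 difference of 0.30 (interval -0.15 to 0.75). SRF itself had 0.22 (interval -0.24 to 0.69), TAGLN2, an actin-binding protein gene, 0.22 (interval -0.21 to 0.65) and ACTB 0.17 (interval -0.27 to 0.60). The SRF list's median was 0.071 with quantile-normalized and 0.072 with loess-normalized values, and ran from 0.038 without untreated replicate 2 to 0.18 without untreated replicate 1. The count of positive differences also moved with the arrays used, from 8 of the 14 without untreated replicate 2 to 11 without untreated replicate 1.

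The genes with profiles most like that of YAP1 over the 4 arrays, among 8721 named genes above the negative controls, were SH3PXD2B, POLRMT and YDJC. After each gene's own mean was subtracted, their root mean square log2 differences to YAP1 were 0.0093, 0.019 and 0.022. A distance under 0.1 was shared by 208 genes, so with 4 arrays this likeness is common.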

How the data were processed

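The authors deposited log2 values, 1 per probe set and array, and the submitters' processing notes list RMA and Transcriptome Analysis Console 4.0.1.36. That they are log2 was read from their range. RMA equalises the arrays' distributions, so it would take out a shift of most genes. The sources used here give no genome build for the probe sets. The design text calls the replicates biological without saying how cultures were separated, so p-values cover only the spread among these arrays, which may be technical.

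Of the probe sets, 21448 were tested, after 31 AFFX, 63 ERCC, 2197 positive and 612 negative HTA2 control sets were left out. The platform annotation names 17709 of them with 1 symbol each, and all matched RefSeq gene identifiers. For 20 symbols with several probe sets the brightest was used. Treated and untreated arrays were compared with limma 3.58.1 (lmFit, eBayes) in R 4.3.3, group as the only term, two-sided, with Benjamini-Hochberg adjustment over all tested probe sets, 2 residual and 4.9 prior degrees of freedom. The limits on means are 7.22 for untreated cells and 6.96 over the 4 arrays. The number of arrays limits precision. The genes and lists were chosen with earlier results of these data known. Beside the 10 genes, the text names from each list up to 4 genes above the negative controls with the largest non-overlapping differences, a few fixed genes, the other CCN genes and the 3 profiles nearest YAP1 (those nearest CCN2, a gene below background, are left out). VGLL1, VGLL2, VGLL3, MRTFA, MRTFB, CNN1, CNN2 and PTPRC were named after their values were seen. Listed genes with no named probe set (TAOK1, AMOT, AMOTL2, ASAP1, TGFB2 and FLNA) were not analysed here.

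The fit was tested on simulated data, in 20 simulations of 21448 probe sets with 200 changed, where in equal mixture it called 0.6% of 1.5-fold, 4.3% of 2-fold, 86.5% of 4-fold and 98.5% of 8-fold changes. Alternatives were other normalizations, filters on dim probe sets, a floor, other variance moderation, array weights, control sets kept, the replicate number as a block, and each array left out.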

Additional observations from a re-analysis of the deposited data

How the results depend on the processing

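Under all 15 alternatives 0 of the 10 genes passed at an adjusted p under 0.05 by limma, and none had an unadjusted p under 0.05 in the fit as reported. The difference of YAP1 was 0.34 to 0.50 under the alternatives, and with no array left out its adjusted p by limma was 0.243 to 0.977. Its sign could not turn when an array was left out, because both treated arrays were above both untreated arrays. Filters, the floor, variance moderation, the block, array weights and kept control sets left it at 0.42. The other normalizations gave 0.36 to 0.42. The median was 0.023 to 0.101, over 5 or 6 genes with a filter or the floor and over all 10 otherwise; counting the genes at the floor too, it was -0.21 with the floor. Positive differences numbered 3 of the 5 measurable genes when only probe sets above the negative controls were kept or values were floored at the limit, because fewer genes remained. Signs turned in 6 genes when an array was left out: CCN1 ranged from -0.22 to 0.10, TEAD1 from -0.27 to 0.17, TEAD2 from -0.070 to 0.28, TEAD3 from -0.25 to 0.24, LATS1 from -0.010 to 0.21, and LATS2 from -0.43 to 0.15. CCN1 also turned after quantile normalization, to 0.0046; the cause was not tested. Over all probe sets 0 passed in the fit as reported, 10 with the floor, none of them among the 10 genes, and 1089 at an unadjusted p under 0.05. With the replicate number as a block, 0 probe sets and 0 of the 10 genes passed and no call changed. Same-numbered arrays did not deviate together (r = -0.00085 over 21448 probe sets between the groups' replicate differences). Whether same-numbered cultures were handled as pairs cannot be told from these values. Each gene has 1 probe set, so averaging probe sets alters nothing. For the 5 genes under the limit on every array the floor gives no difference of their own. Signals near the negative controls limit what can be said of WWTR1, TEAD3, TEAD4, LATS2, CCN1 and CCN2.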
